A study of Mus musculus with 4 samples.

Results

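The genes described here are 31 genes of cholesterol synthesis and of its control by the transcription factor SREBP2, chosen by name and ordered by pathway step. Of these, 30 had a row of their own in the table of normalised expression, which holds 23492 gene symbols. Levels above 0 were estimated for 29 of the 30, and all 29 passed the minimum of 1 FPKM on average over the libraries (FPKM, fragments scaled to the length of the transcript and the depth of the library). Hmgcs1 was listed at 0 in all 4 libraries, and Tm7sf2 was present only in a row joined with its neighbour Vps51. The data comprised RNA-seq of epithelium from the jejunum, the middle part of the small intestine, of adult mice. Their mixed background is given as 129xC57/Bl6xSvJ. The groups were 2 libraries labelled Hnf4a-/-;Cdx2-/- (Hnf4a;Cdx2 double-knockout) and 2 from Cre- controls, described as independent biological replicates. Animals of both genotypes had received 1 mg tamoxifen on each of 5 days, which activates an inducible Cre, and the sheets of epithelium were released in 5 mM EDTA. Neither the promoter that drives Cre nor which exons it removes is stated in the labels.

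Cells make cholesterol from acetyl-CoA by way of mevalonate, isoprenoid diphosphates, squalene and lanosterol. SREBP2, encoded by Srebf2, is held in the endoplasmic reticulum by SCAP and INSIG proteins while sterols are plentiful. When sterols are scarce, SCAP carries it to the Golgi, where a pair of proteases releases the part that enters the nucleus and activates genes of synthesis and uptake. The jejunal epithelium both makes cholesterol and takes it up from the gut lumen through NPC1L1.

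The targeted genes were read first. Hnf4a stood at 31.6 and 48.2 FPKM in the libraries labelled double knockout, against 156 and 202 FPKM in controls, and fell by 2.16 ± 0.27 on the log2(FPKM + 1) scale (SE, limma, adjusted p = 0.0147). Cdx2 stood at 159.8 and 161 FPKM in the libraries labelled double knockout, against 70.9 and 65.2 FPKM in controls, a log2 difference of 1.23 ± 0.15 (SE, limma, adjusted p = 0.0150). With 1 library left out, Hnf4a lost its call without either control (limma, adjusted p of up to 0.0875), and Cdx2 without either control and without labelled double knockout 2 (up to 0.0868). The direction of Cdx2 goes against its label, and a gene-level value includes exons outside a deleted part, so the group is called the labelled double knockout throughout. The files give no read counts. Steps between low values put the depth of labelled double knockout 1, labelled double knockout 2 and control 2 at 0.652, 0.498 and 0.685 times that of control 1. By this estimate labelled double knockout 2 had the lowest depth. All 10 epithelial markers (Vil1, Epcam, Cdh1, keratins and others) were detected. Limma called Vil1 and Epcam lower and Krt19 higher (5.8% and 3.77% of all genes tested). Vil1 and Epcam lost their calls in each fit that left out 1 library, and Krt19 in some. Endothelial markers summed to at most 0.874 FPKM in any library.

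In the labelled double knockout, 7 of the 29 genes rose and 0 fell by limma at an adjusted p under 0.05. Across all 10883 genes tested, 9.57% were called, 3.77% higher and 5.8% lower. At an unadjusted p under 0.05, 17 of the 29 genes were higher and 3 lower, against 13.3% and 15% of all genes tested. The 7 were Pmvk and Mvd of the mevalonate steps, Fdft1, Sqle and Lss of the squalene and lanosterol steps, Nsdhl of the steps from lanosterol to cholesterol, and Insig1, which retains SREBP2 when sterols are plentiful. Their mean levels were 1.95 to 4.30 times those of the controls. The median log2 difference was 0.69 over the 29 genes and 0.91 over the 18 biosynthetic enzymes among them, against 0.02 over all genes tested. Both labelled double knockout libraries lay above both controls for 19 of the 29 genes (31.2% of all genes tested) and below both for 4 (29.5% of all genes tested). The members were picked with earlier results of these data known, so these counts describe the genes and test nothing about the group. Since whole epithelium was sequenced, a lower level may be fewer cells of a type or less RNA per cell, and these cannot be told apart.

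**Figure D1:**
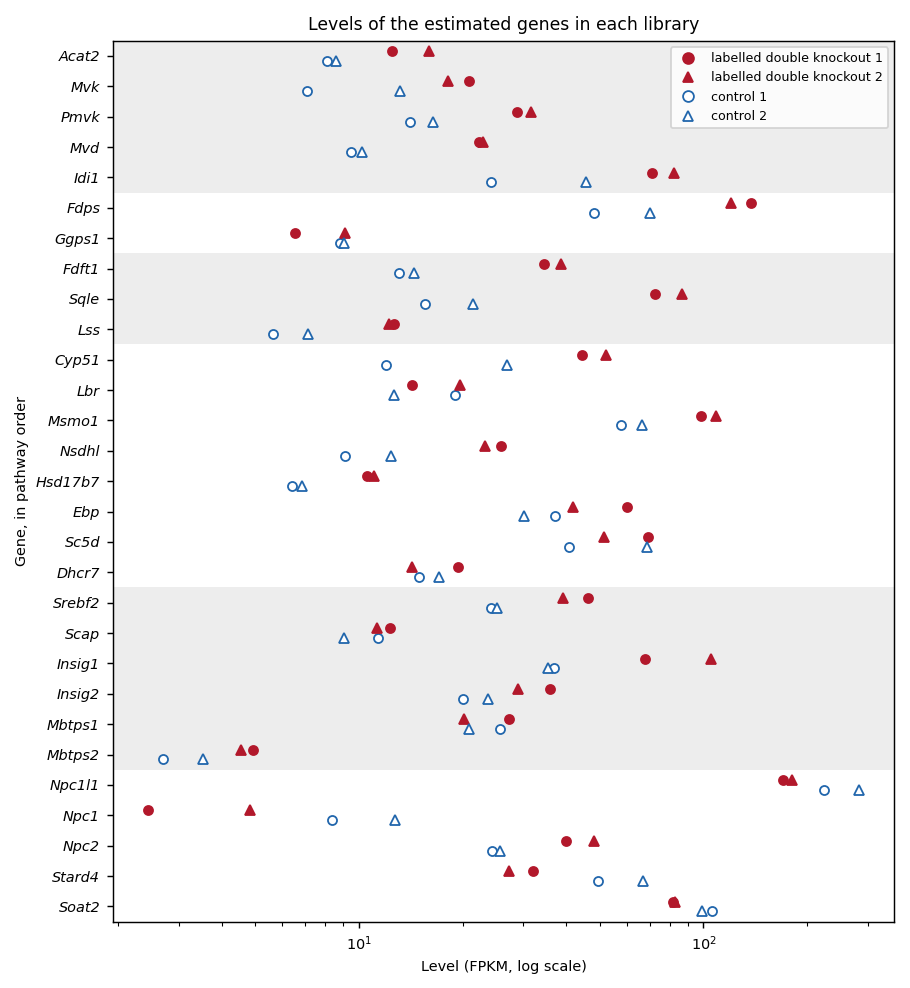
Level of each of the 29 estimated genes in each library, in FPKM on a log axis, in pathway order from top to bottom; filled red symbols are the labelled double knockout libraries and open blue symbols the controls, with circles for replicate 1 and triangles for replicate 2. The red symbols lie to the right of both blue ones for 19 genes, with the widest gap at Sqle, and to the left for 4, which are Npc1l1, Npc1, Stard4 and Soat2.

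The promoters of 5 genes are printed here because 4 of the genes rose, each at a different step, and the fifth, Hmgcs1, has no usable level. They run from 250 bases before to 50 bases after the annotated start (RefSeq, GRCm38.p6), with capitals on the CCAAT box bound by NF-Y, in either orientation, and on the sterol regulatory element TCACNCCAC, to which SREBP2 binds with NF-Y nearby at many of its targets.
Hmgcs1 (chr13:119690101-119690400, plus strand): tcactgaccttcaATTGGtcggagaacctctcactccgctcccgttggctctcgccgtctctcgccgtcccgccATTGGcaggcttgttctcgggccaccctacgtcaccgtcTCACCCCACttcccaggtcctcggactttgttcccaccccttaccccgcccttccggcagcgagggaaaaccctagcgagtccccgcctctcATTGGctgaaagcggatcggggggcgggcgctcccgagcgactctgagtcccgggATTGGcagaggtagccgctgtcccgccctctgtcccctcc
Mvd (chr8:122443373-122443672, minus strand): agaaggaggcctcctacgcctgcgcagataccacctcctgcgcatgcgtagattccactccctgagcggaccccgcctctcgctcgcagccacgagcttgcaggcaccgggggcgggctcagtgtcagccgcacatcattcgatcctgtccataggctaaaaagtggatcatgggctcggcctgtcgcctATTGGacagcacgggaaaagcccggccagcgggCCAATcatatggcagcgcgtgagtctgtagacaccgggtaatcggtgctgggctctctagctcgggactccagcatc
Lss (chr10:76531355-76531654, plus strand): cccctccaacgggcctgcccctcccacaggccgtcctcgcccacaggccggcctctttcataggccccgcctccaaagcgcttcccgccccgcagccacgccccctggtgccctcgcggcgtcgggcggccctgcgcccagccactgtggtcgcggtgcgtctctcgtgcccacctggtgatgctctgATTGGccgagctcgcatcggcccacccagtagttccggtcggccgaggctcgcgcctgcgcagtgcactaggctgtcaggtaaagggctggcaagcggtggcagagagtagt
Nsdhl (chrX:72918271-72918570, plus strand): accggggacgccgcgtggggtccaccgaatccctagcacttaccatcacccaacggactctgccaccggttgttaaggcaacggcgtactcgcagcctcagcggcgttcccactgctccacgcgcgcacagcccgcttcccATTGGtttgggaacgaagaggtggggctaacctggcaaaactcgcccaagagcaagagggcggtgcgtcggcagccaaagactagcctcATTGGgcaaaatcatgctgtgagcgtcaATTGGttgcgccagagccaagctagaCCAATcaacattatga
Insig1 (chr5:28071162-28071461, plus strand): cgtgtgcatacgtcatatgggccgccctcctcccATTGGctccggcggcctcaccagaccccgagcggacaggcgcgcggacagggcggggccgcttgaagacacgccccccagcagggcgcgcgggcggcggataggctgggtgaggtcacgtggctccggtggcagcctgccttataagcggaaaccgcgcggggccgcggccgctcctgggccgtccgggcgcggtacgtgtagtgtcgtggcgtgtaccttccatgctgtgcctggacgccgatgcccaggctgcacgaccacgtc

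Of the 31 genes, 25 had at least 1 promoter in the RefSeq table, with 31 promoters in all, searched on both strands. The other 6, Sqle, Fdft1, Fdps, Stard4, Soat2 and Npc1, had none there and were not searched. CCAAT was present in 21 of the 31 promoters (67.7%), 1 for each of 21 genes, against 38.0% of the promoters of all genes tested and 37.4% of all 32851 promoters. The GC box GGGCGG, bound by Sp1, was present in 77.4% of the 31, against 62.3% of the promoters of all genes tested. The strict sterol element TCACNCCAC was present in 1 of the 31, that of Hmgcs1. It was found in 1.19% of the promoters of all genes tested and in 1.24% of all promoters. A looser core, CACNNCAC, chosen after that search and contained within the strict element, was present in 7 of the 31 (22.6%). The looser core was found in 15.8% of the promoters of all genes tested and in 16.2% of all promoters. CAAAGTCCA, the core of an HNF4 element, was present in 0 of the 31, in 0.469% of the promoters of all genes tested and in 0.475% of all promoters. TTTATNG, a CDX element, was present in 3 of the 31 (9.68%), those of Insig2, Pmvk and Scap. It was found in 6.92% of the promoters of all genes tested and in 10.9% of all promoters. These are matches of letters within 300 bases and say nothing of binding.

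The mevalonate steps begin with Acat2, the cytosolic thiolase that joins acetyl-CoA units, and Hmgcs1, the HMG-CoA synthase. Acat2 stood at 12.5 and 15.9 FPKM in the labelled double knockout and at 8.10 and 8.61 FPKM in controls, a log2 difference of 0.69 ± 0.18 that was not called (SE, limma, adjusted p = 0.0797). The groups did not overlap. Hmgcs1 has no level. The files place it only at 2 intervals of 17910 bases each on an unplaced contig of mm9 (13_random, 114527 to 132436 and 308437 to 326346), and all 127 rows on unplaced contigs were listed at 0 in all 4 libraries, the 9 rows of 13_random included.

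Mvk and Pmvk, the kinases that phosphorylate mevalonate in turn, differed in how closely their controls agreed. Mvk stood at 20.9 and 18.1 FPKM in the labelled double knockout, against 7.06 and 13.2 FPKM in controls. Its controls differed 1.86-fold, and its log2 difference of 0.94 ± 0.30 was not called (SE, limma, adjusted p = 0.122). Pmvk had nearly the same difference with a smaller error. It stood at 28.7 and 31.6 FPKM in the labelled double knockout, against 14.1 and 16.5 FPKM in controls, and rose by 0.94 ± 0.16 (SE, limma, adjusted p = 0.0325).

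Mvd, the decarboxylase that yields isopentenyl diphosphate, stood at 22.3 and 22.9 FPKM in the labelled double knockout, against 9.46 and 10.2 FPKM in controls. It rose 2.30-fold (log2 difference 1.12 ± 0.15, SE, limma, adjusted p = 0.0163), and its replicates lay within 1.08-fold of each other in both groups. Idi1, which converts isopentenyl diphosphate to its isomer, stood at 70.8 and 81.9 FPKM in the labelled double knockout, against 24.2 and 45.6 FPKM in controls. Its log2 difference of 1.17 ± 0.32 was as large as that of Mvd but was not called (SE, limma, adjusted p = 0.0905), and its controls differed 1.89-fold. The authors' deposited table calls both, Mvd at 23.01 FPKM in the knockout and 10.3 in control (q = 0.0101) and Idi1 at 78.7 and 34.8 (q = 0.00566).

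Farnesyl diphosphate, made by the enzyme of Fdps, is the branch point from which sterols and the longer isoprenoids both derive. Fdps stood at 137.7 and 119.8 FPKM in the labelled double knockout, against 48.0 and 70.2 FPKM in controls, the highest level of any enzyme of the list in the labelled double knockout. Its log2 difference of 1.13 ± 0.23 lay just outside the threshold (SE, limma, adjusted p = 0.05004), and the authors' deposited table calls it (121.8 FPKM in the knockout, 57.4 in control, q = 0.0101). Ggps1, whose enzyme extends farnesyl to geranylgeranyl diphosphate for protein prenylation, stood at 6.54 and 9.10 FPKM in the labelled double knockout, against 8.80 and 9.06 FPKM in controls. Its groups overlapped, with a log2 difference of -0.19 ± 0.20 (SE, limma, adjusted p = 0.587).

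The squalene and lanosterol steps, the first that lead to sterols alone, held the largest rise. All 3 of their genes were called higher (3.77% of all genes tested). Sqle (chr15:59146647-59162748, mm9), the squalene epoxidase and a rate-limiting enzyme of the pathway, stood at 72.4 and 86.5 FPKM in the labelled double knockout, against 15.6 and 21.4 FPKM in controls. The lower labelled double knockout library was 3.39 times the higher control, and the log2 difference of 2.06 ± 0.21 was the largest of the 29 genes (SE, limma, adjusted p = 0.00990). Fdft1 (chr14:63763988-63796630, mm9), the squalene synthase, stood at 34.6 and 38.5 FPKM in the labelled double knockout, against 13.1 and 14.5 FPKM in controls, and rose by 1.34 ± 0.16 (SE, limma, adjusted p = 0.0128). The authors' deposited table does not call it (36.4 FPKM in the knockout, 13.7 in control, q = 0.587), and lists it under 1 interval shared with Ctsb (140.7 and 97.7 FPKM). Lss, which closes squalene epoxide into lanosterol, stood at 12.7 and 12.2 FPKM in the labelled double knockout, against 5.62 and 7.14 FPKM in controls, and rose by 0.87 ± 0.18 (SE, limma, adjusted p = 0.0469).

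From lanosterol to cholesterol 1 of 8 genes rose (3.77% of all genes tested), with a median log2 difference of 0.60. Cyp51, the lanosterol demethylase, stood at 44.3 and 52.1 FPKM in the labelled double knockout, against 11.99 and 26.9 FPKM in controls. Its controls stood 2.24-fold apart, the widest gap between controls of any of the 29 genes, and its log2 difference of 1.36 ± 0.38 was not called (SE, limma, adjusted p = 0.0944; q = 0.00159 in the authors' deposited table). Nsdhl, a dehydrogenase that helps remove the methyl groups of lanosterol, stood at 25.8 and 23.3 FPKM in the labelled double knockout, against 9.11 and 12.4 FPKM in controls, and rose by 1.13 ± 0.20 (SE, limma, adjusted p = 0.0333). Its partners in that removal had smaller differences. Msmo1, the methyl sterol oxidase, stood at 98.6 and 108.8 FPKM in the labelled double knockout, against 57.7 and 66.1 FPKM in controls (log2 difference 0.74 ± 0.17, SE, limma, adjusted p = 0.0593). Hsd17b7, the ketoreductase, stood at 10.5 and 11.1 FPKM in the labelled double knockout, against 6.42 and 6.84 FPKM in controls (log2 difference 0.63 ± 0.15, SE, limma, adjusted p = 0.0680).

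The reductase step after Cyp51 can be carried out by the products of Tm7sf2 and Lbr, the second of which is also a receptor for nuclear lamins. Lbr stood at 14.2 and 19.6 FPKM in the labelled double knockout, against 18.95 and 12.7 FPKM in controls, and its groups overlapped (log2 difference 0.10 ± 0.26, SE, limma, adjusted p = 0.838). The row that joins Tm7sf2 with Vps51 stood at 29.6 and 20.8 FPKM in the labelled double knockout, against 28.7 and 32.7 FPKM in controls, and its level cannot be split between them. In the files estimated for each library alone, Tm7sf2 had 16.997 and 10.9 FPKM in the labelled double knockout, against 16.7 and 20.9 FPKM in controls.

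The last enzymes of the pathway showed no call. Ebp, the sterol isomerase, stood at 59.9 and 41.7 FPKM in the labelled double knockout, against 37.2 and 30.2 FPKM in controls, with a log2 difference of 0.56 ± 0.24 (SE, limma, adjusted p = 0.202). Its groups did not overlap. Sc5d, the desaturase, stood at 68.9 and 51.5 FPKM in the labelled double knockout, against 40.6 and 68.6 FPKM in controls. Dhcr7, which completes cholesterol, stood at 19.4 and 14.2 FPKM in the labelled double knockout, against 14.95 and 17.1 FPKM in controls. The groups overlapped for Sc5d and Dhcr7, with limma adjusted p-values of 0.755 and 0.896.

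**Figure D2:**
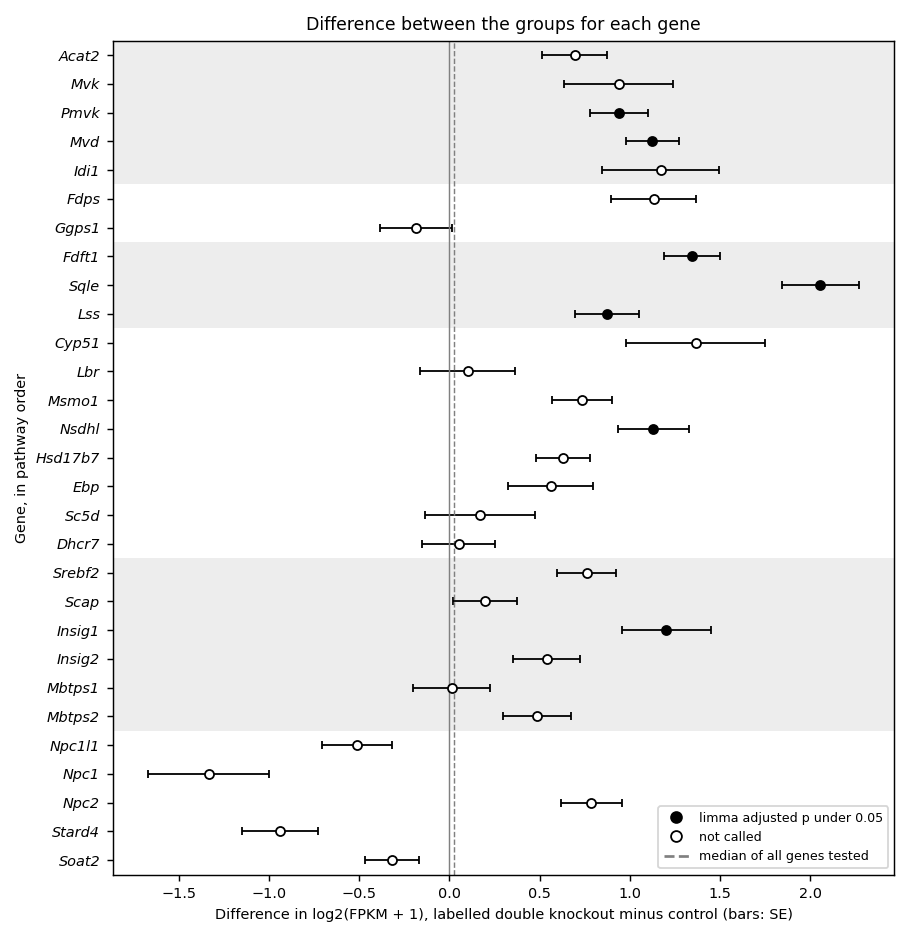
Difference between the labelled double knockout and control in log2(FPKM + 1) for each of the 29 genes in pathway order, with bars for the standard error; filled points are genes called by limma. The 7 filled points lie between 0.87 and 2.06, Npc1 and Stard4 lie lowest at -1.34 and -0.94, and the dashed line marks the median of all genes tested at 0.02.

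Among the genes of SREBP2 control, 1 of 6 rose (3.77% of all genes tested) and the median log2 difference was 0.51. Srebf2 stood at 46.2 and 39.1 FPKM in the labelled double knockout, against 24.1 and 25.2 FPKM in controls, and the groups did not overlap. Its log2 difference of 0.76 ± 0.16 was not called (SE, limma, adjusted p = 0.0534). Insig1, itself a target of SREBP2 and part of its feedback, stood at 67.7 and 105.2 FPKM in the labelled double knockout, against 36.8 and 35.4 FPKM in controls, and rose by 1.20 ± 0.25 (SE, limma, adjusted p = 0.0491). Its labelled double knockout libraries differed 1.55-fold while its controls lay close together. Insig2, the second retention protein, stood at 35.7 and 28.9 FPKM in the labelled double knockout, against 20.1 and 23.7 FPKM in controls (log2 difference 0.54 ± 0.19, SE, limma, adjusted p = 0.139).

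None of the escort and the proteases was called. Scap, the escort, stood at 12.3 and 11.3 FPKM in the labelled double knockout, against 11.4 and 9.04 FPKM in controls, with overlap (limma, adjusted p = 0.514). Mbtps1, the protease that makes the first cut, stood at 27.2 and 20.1 FPKM in the labelled double knockout, against 25.7 and 20.9 FPKM in controls, with a log2 difference of 0.01 ± 0.21 (SE, limma, adjusted p = 0.977). Mbtps2, the protease of the second cut, was the least abundant gene of this group at 4.93 and 4.56 FPKM in the labelled double knockout, against 2.70 and 3.53 FPKM in controls (log2 difference 0.49 ± 0.19, SE, limma, adjusted p = 0.177).

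Of the 5 genes of sterol uptake, transport and storage, limma called 0 (1 higher and 3 lower at an unadjusted p under 0.05, against 13.3% and 15% of all genes tested). In both labelled double knockout libraries 4 of the 5 stood below both controls (29.5% of all genes tested) and 1 above both (31.2%). Npc1l1, the receptor for luminal cholesterol and the most abundant of the 29 genes, stood at 170.5 and 181 FPKM in the labelled double knockout, against 223 and 282 FPKM in controls (log2 difference -0.51 ± 0.19, SE, limma, adjusted p = 0.168). Npc1, which exports cholesterol from lysosomes, stood at 2.45 and 4.84 FPKM in the labelled double knockout, against 8.34 and 12.7 FPKM in controls. Its log2 difference of -1.34 ± 0.33 was not called (SE, limma, adjusted p = 0.0740), whereas the authors' deposited table calls it lower (3.75 FPKM in the knockout, 10.8 in control, q = 0.0452) under an interval shared with 3110002H16Rik. Npc2, whose product hands cholesterol to NPC1, lay on the other side of its controls, at 39.9 and 48.3 FPKM in the labelled double knockout, against 24.4 and 25.7 FPKM in controls (log2 difference 0.79 ± 0.17, SE, limma, adjusted p = 0.0533).

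Stard4, a carrier of cholesterol through the cytosol and in other settings a target of SREBP2, stood at 31.9 and 27.3 FPKM in the labelled double knockout, against 49.5 and 67.0 FPKM in controls. Its log2 difference was -0.94 ± 0.21 (SE, limma, adjusted p = 0.0581), opposite in sign to those of the synthesis genes that rose, and the authors' deposited table calls it lower (31.1 and 59.1 FPKM, q = 0.0350). Soat2, which esterifies absorbed cholesterol for chylomicrons, stood at 81.4 and 82.9 FPKM in the labelled double knockout, against 106 and 99.3 FPKM in controls (log2 difference -0.32 ± 0.15, SE, limma, adjusted p = 0.246). Summed over the 5 genes, levels were 326 and 344 FPKM in the labelled double knockout, against 411 and 487 FPKM in controls, a sum in which Npc1l1 weighs most. The 18 enzymes summed to 761 FPKM in labelled double knockout 1 and to nearly the same in labelled double knockout 2, against 351 and 457 FPKM in controls.

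**Figure D3:**
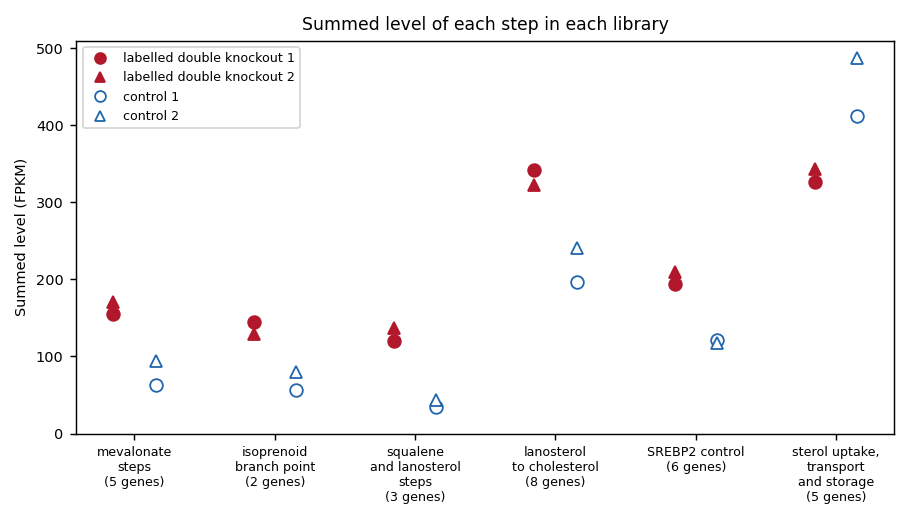
Summed level in FPKM of the estimated genes of each step, with 1 symbol per library; filled red symbols are the labelled double knockout libraries and open blue symbols the controls, with circles for replicate 1 and triangles for replicate 2. Red symbols lie above blue ones for the 4 steps of synthesis and for SREBP2 control, and below them for uptake, transport and storage (326 and 344 against 411 and 487 FPKM).

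The controls differed from each other along this pathway. Control 2 stood above control 1 for 16 of the 18 enzymes and for 23 of the 29 genes, against 49.2% of all genes tested. The median gap, control 2 minus control 1, was 0.20 on the log2(FPKM + 1) scale over the enzymes and -0.01 over all genes tested. Cyp51, Idi1, Mvk, Sc5d and Npc1 had controls at least 1.5-fold apart (19.3% of all genes tested), and none of these 5 was called by limma. The labelled double knockout libraries had a median gap, replicate 2 minus replicate 1, of 0.10 over the enzymes, and replicate 2 stood above replicate 1 for 16 of the 29 genes (46.8% of all genes tested). The proliferation markers of the crypt (Mki67, Top2a, Pcna and others, 10 genes) ran the other way between the controls, with a sum of 247 FPKM in control 1 and 157 FPKM in control 2, and summed to 190 and 257 FPKM in the labelled double knockout. Limma called 0 of these 10 (0 at an unadjusted p under 0.05, against 13.3% higher and 15% lower of all genes tested) and the groups overlapped for all 10. Their part in the differences of the pathway genes was not tested.

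None of the 7 calls held in all 4 fits that left out 1 library. Sqle came closest, losing its call only without control 1 (limma, adjusted p = 0.0562), and Fdft1 kept its call only without labelled double knockout 1 (adjusted p = 0.0423), as did Insig1 (0.0319). Pmvk, Mvd, Lss and Nsdhl lost theirs in every such fit, their highest adjusted p in limma being 0.142, 0.0883, 0.179 and 0.129 in that order. All 7 kept a positive difference in each fit. That was fixed in advance, because both labelled double knockout libraries lay above both controls for each of them. The number of the 29 genes called higher was 0 without control 1, 1 without control 2, 3 without labelled double knockout 1 and 1 without labelled double knockout 2. A fit with a lone library in a group assumes that it varies as the other group does.

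**Figure D4:**
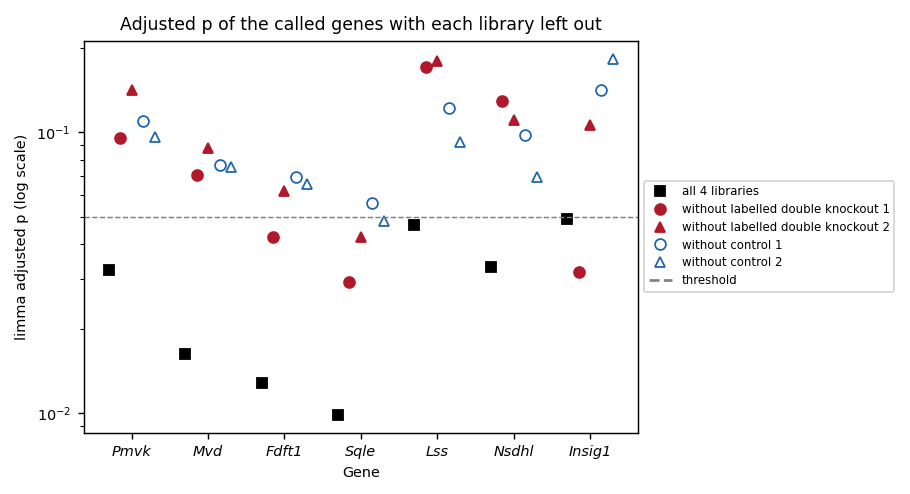
Limma adjusted p, on a log axis, of the 7 called genes with all 4 libraries (black squares) and with each library left out in turn (red, a labelled double knockout library left out; blue, a control left out); the dashed line is the threshold of 0.05. Most symbols for 3 libraries lie above the line, and Sqle lies below it in all but the fit without control 1 (0.0562).

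The authors' own test gave a partly different set of calls. The authors' deposited table calls 8 of the 29 genes higher in the knockout (Mvd, Idi1, Fdps, Sqle, Lss, Cyp51, Nsdhl and Insig1) and 2 lower (Npc1 and Stard4). Over all 11594 genes tested there, 5.9% are called higher and 7.31% lower. Of its 10 calls 5 were also called by limma, and these were 5 of limma's 7. The lowest q among the 29 genes in the authors' deposited table is 0.000868, for Sqle (81.35 FPKM in the knockout, 18.9 in control) and for Insig1 (90.4 and 37.4). Both tests used the same libraries.

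Other genes that SREBP2 acts on or that sense sterols did not share the direction of the enzymes as a list. Of 17 tested, 1 rose and 2 fell (3.77% and 5.8% of all genes tested), with a median log2 difference of -0.12. Aacs, which makes acetoacetyl-CoA from ketone bodies for lipid synthesis, stood at 26.1 and 26.4 FPKM in the labelled double knockout, against 12.1 and 10.7 FPKM in controls (limma, adjusted p = 0.0169). Por, the electron donor of Sqle and Cyp51 enzymes, stood at 78.6 and 67.8 FPKM in the labelled double knockout, against 180.1 and 166 FPKM in controls, and fell by 1.23 ± 0.17 (SE, limma, adjusted p = 0.0177). Erlin1, a protein of the endoplasmic reticulum membrane that binds cholesterol, stood at 22.8 and 17.1 FPKM in the labelled double knockout, against 45.2 and 50.9 FPKM in controls, and fell by 1.24 ± 0.20 (SE, limma, adjusted p = 0.0258). Aacs lost its call in each fit that left out 1 library (adjusted p of 0.0666 to 0.0878), and Por and Erlin1 lost theirs in some (up to 0.0867 and 0.124).

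Of 11 tested targets of the sterol receptor LXR and genes of sterol efflux, 1 rose and 1 fell. Over all genes tested these shares were 3.77% and 5.8%, and the median log2 difference of the 11 was -0.43. Scarb1, a scavenger receptor that takes up cholesterol, stood at 37.7 and 32.2 FPKM in the labelled double knockout, against 3.41 and 1.29 FPKM in controls, and kept its call with any 1 library left out (limma, adjusted p = 0.00877, and at most 0.0363). Abcg5, part of the pump that returns sterols to the lumen, stood at 70.8 and 36.9 FPKM in the labelled double knockout, against 178 and 150.0 FPKM in controls, and fell by 1.66 ± 0.34 (SE, limma, adjusted p = 0.0484). Abcg5 lost its call without either control and without labelled double knockout 2 (up to 0.157). Of 11 tested genes that use isoprenoids (prenyl transferases, dolichol and ubiquinone synthesis) limma called 0, with 2 lower and 0 higher at an unadjusted p under 0.05 (15% and 13.3% of all genes tested), and their median log2 difference was 0.08. Of 11 lipogenic genes under SREBP1, 2 rose (3.77% of all genes tested), with a median log2 difference of 0.48. Fasn, the fatty acid synthase, stood at 19.2 and 19.3 FPKM in the labelled double knockout, against 9.05 and 8.47 FPKM in controls (limma, adjusted p = 0.0182), and Acss2, which makes acetyl-CoA from acetate, at 20.8 and 20.9 FPKM, against 10.4 and 11.2 FPKM in controls (limma, adjusted p = 0.0284). Both lost their calls in each fit that left out 1 library (up to 0.1 for Fasn and 0.132 for Acss2).

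Markers of mature enterocytes differed among themselves. Of 10 tested, 2 fell (Sis and Lct) and 0 rose (5.8% and 3.77% of all genes tested). The median log2 difference of the 10 was -1.02, and Sis lost its call in some fits that left out 1 library. Both labelled double knockout libraries lay below both controls for 6 of the 10 (29.5% of all genes tested). They lay above both controls for 1, Alpi (31.2% of all genes tested). The 10 genes summed to 21500 and 11000 FPKM in the labelled double knockout, against 15900 and 20800 FPKM in controls, so their sums overlapped. Apoa4 weighed most in these sums, at 17020 and 8240 FPKM in the labelled double knockout, against 10100 and 12910 FPKM in controls. Leukocyte markers summed to 14.8 and 25.9 FPKM in the labelled double knockout, against 25.2 and 59.7 FPKM in controls. Of 6 tested, 1 fell (5.8% of all genes tested). It was Itgam, which lost its call in each fit that left out 1 library. Fibroblast and muscle markers summed to 2.95 and 7.46 FPKM in the labelled double knockout, against 4.56 and 5.77 FPKM in controls, with none at 0 in all libraries. The part of these cell types in the differences of the pathway genes was not tested.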

How the data were processed

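Per the submitters' processing notes, TopHat2 2.0.9, Cufflinks 2.1.1, Cuffnorm, Cuffdiff and the build mm9 were used, without stated roles. One table the authors deposited has 23735 rows and no unit in its header; it was taken as FPKM normalised between libraries. The deposited files of single libraries hold FPKM for that library alone. The authors also deposited a comparison table with group FPKM, p-values and q-values. No file gives read counts, and whether the libraries kept strand is not stated, so reads of genes that overlap on opposite strands cannot be told apart. Relative depth was read from the commonest ratio between low values of 2 libraries.

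Rows of 1 symbol were summed (160 symbols) and 1034 short RNA symbols left out. Genes averaging 1 FPKM or more (10883) were tested with limma 3.58.1 (R 4.3.3) on log2(FPKM + 1), which understates changes of low genes, with genotype as the term, an intensity trend, two-sided tests and Benjamini-Hochberg adjustment over all genes. The procedure was tested on simulated data with normal noise drawn from its own variance model. That does not test its error rate on these libraries. An exact permutation test of 2 against 2 libraries cannot give a p under 0.333. Members and lists were chosen with earlier results of these data known. All members, the targeted genes, and called genes of the other lists were named; some genes of those lists are not reported here. Alternatives changed the pseudocount, filter, scaling, source of FPKM, variance model and a replicate block, and left out each library.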

Additional observations from a re-analysis of the deposited data

How the results depend on the processing

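In all settings the number of the 29 genes called lower was 0, except 1 (Npc1) with a replicate block. The number called higher of the 29 genes was 7, and became 3 with no filter but a mean above 0 (268 called higher over all genes), 11 with the per-library FPKM, and 3 with the replicate block; with other pseudocounts, a filter at 5 FPKM, median centring, quantile normalisation and no trend it was 5 to 10. Of the 7 called genes, Pmvk, Lss, Nsdhl and Insig1 lost their calls with no filter (adjusted p of up to 0.0872) and with the replicate block (up to 0.0799), Lss and Insig1 with quantile normalisation (0.0508 and 0.0551) and with no trend (0.0531 and 0.0549), and Insig1 with a pseudocount of 5 (0.053). Leaving out 1 library gave 0 to 3 called higher, and over all genes 67 to 309 higher and 97 to 384 lower, against 410 and 631. The per-library FPKM put the median of all genes at 0.17, against 0.02, and 51.7% of its calls were higher, against 39.4%; the median of the 29 genes relative to that of all genes was 0.67 with either source. The cause of these changes was not tested. Without a filter p-values were adjusted over 16712 genes, against 10883, and leaving out 1 library left fewer libraries to fit. The replicate numbers are not known to pair the animals: same-numbered libraries deviated from their group means with a correlation of -0.005 across genes. Signs turned only for genes that were not called: Ggps1 (0.0216 with per-library FPKM, and -0.397 to 0.0244 with 1 library left out, above 0 without labelled double knockout 1), Lbr (-0.172 to 0.376, below 0 without control 2 and at -0.116 without labelled double knockout 2), Sc5d (-0.20 to 0.543, below 0 without control 1 and at -0.0344 without labelled double knockout 1), Dhcr7 (-0.157 to 0.26, below 0 in the same fits) and Mbtps1 (-0.194 to 0.222, below 0 without labelled double knockout 1 and at -0.129 without control 2). The 7 called genes could not turn with 1 library left out, because their groups did not overlap. The median difference of the 29 genes lay between 0.52 and 0.84 in all settings. With the filter at 5 FPKM that median left out Mbtps2, which averaged less. With unknown depth, no counting error is given.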
